A study of Mus musculus with 6 samples.

Results

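The nuclear-encoded genes of the mitochondrial respiratory chain were examined in mouse bone marrow-derived mesenchymal stem cells (MSCs), cultured stromal cells that can form bone, fat and cartilage. Members were taken by symbol from the protein-coding genes: the Ndufa, Ndufb, Ndufc, Ndufs and Ndufv series, Sdha to Sdhd, the Uqcr, Cox4 to Cox8 and Atp5 series, Cyc1 and Cycs. Of 15634 listed genes, 94 met this rule, and all 94 passed the filter on low counts. They comprised 37 subunits of complex I, 8 assembly factors of complex I, 4 subunits of complex II, 9 of complex III, cytochrome c, 17 genes of complex IV and 18 of complex V. The symbol Atp5o was given to 2 gene identifiers, and the second of these averaged 1.28 TPM in TNF and 2.12 TPM in Control libraries.

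The TNF group held 3 libraries of MSCs from wild-type C57BL/6J mice exposed to 10 ng/mL of TNF-α for 24 h. The Control group held 3 libraries of unstimulated wild-type MSCs of the same mouse strain. Replicates are not tied to separate animals or cultures in the labels, so p-values measure the spread between these libraries only. All 14 stromal markers looked for were listed, with a summed level of 4951 to 5724 TPM in TNF and 7387 to 8427 TPM in Control libraries. All 14 macrophage markers were listed as well, at 2250 to 2763 TPM in TNF and 3380 to 4766 TPM in Control libraries, so the cultures carried macrophage transcripts. Single markers went both ways: of the stromal ones edgeR called 4 higher and 3 lower, and of the macrophage ones 2 higher (Cd14 and Csf1r) and 6 lower. Of 8 neutrophil markers 2 were listed, Camp and S100a8, both called higher, with a summed level of 7.25 to 10.8 TPM in TNF and 1.42 to 2.01 TPM in Control libraries. In bulk RNA, fewer cells of a type and less RNA per cell cannot be told apart, and the part of macrophages in the results below was not tested. None of 8 erythroid and lymphoid markers was listed.

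Complexes I and II feed electrons from NADH and succinate to ubiquinone, complex III passes them to cytochrome c, and complex IV gives them to oxygen. Complexes I, III and IV pump protons, and complex V, the ATP synthase, uses the resulting gradient to make ATP. Every complex except II also holds subunits encoded by mitochondrial DNA, so transcripts of 2 genomes are needed. Cultured MSCs are known to draw much of their ATP from glycolysis and to rely more on respiration as they differentiate into bone or fat.

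Total counts were 45629973 to 55149746 per TNF library and 54141846 to 77142418 per Control library. Both libraries numbered 2 stood apart. TNF library 2 had 19.4% of its counts on 18S ribosomal RNA, against 1.10% to 3.55% in the other 5 libraries. Control library 2 had 4.45% of its counts on mitochondrially encoded mRNAs, against 1.59% to 2.16% in the others. Counts of calls, the called members and the medians of the complexes are therefore also given without TNF library 2 and Control library 2.

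Few transcripts of the respiratory chain differed between TNF and Control cultures beyond the spread between libraries. By the quasi-likelihood test of edgeR, with p-values adjusted after Benjamini and Hochberg over 15547 genes, 5 of the 94 members were called (5.32%), where 32.4% of all tested genes were called. Sdhb, Ndufab1 and Ndufaf4 were higher in TNF, where 16.0% of all genes were called in that direction, and Ndufa1 and Uqcrh were lower, where 16.4% of all genes were. The median log2 fold change of TNF minus Control was -0.14 over the members and -0.005 over all tested genes. Without both libraries numbered 2 the members' median was -0.0003, with 6 members called higher and 1 lower, where 17.4% and 16.1% of all genes were (33.6% in all). The members' median standard error (SE) was 0.13, and 0.12 over all genes. For 64 of the 94 members the 95% interval of the change lay within 1.5-fold in either direction, as it did for 47.4% of all genes. Without both libraries numbered 2 this held for 87 members, and for 53.7% of all genes. TNF and Control values did not overlap for 5 members that were higher and 13 that were lower, where this held for 24.0% and 24.7% of all genes (48.7% in all).

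No single member was called in every repeat of the test. DESeq2 called 11 members (35.3% of all genes), edgeR with RLE factors 4 (32.4%), edgeR with library totals 4 (26.9%) and limma-voom 4 (32.5%). With a filter at 5 CPM, edgeR called 6 (34.3%). limma on TPM called Ndufa1 and Cox6b2, both lower, with a pseudocount of 1 (23.4%), of 0.1 (23.2%) and over genes of at least 1 TPM (25.0%). With 1 library left out, edgeR called 0 members without TNF 1 (22.1%), 3 without TNF 2 (26.7%), 14 without TNF 3 (29.7%), 7 without Control 1 (25.5%), 2 without Control 2 (30.7%) and 4 without Control 3 (28.8%). With the replicate number as a block it called 2 (25.6%), and at an adjusted p under 0.01 it called 0 (20.1%).

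**Figure D1:**
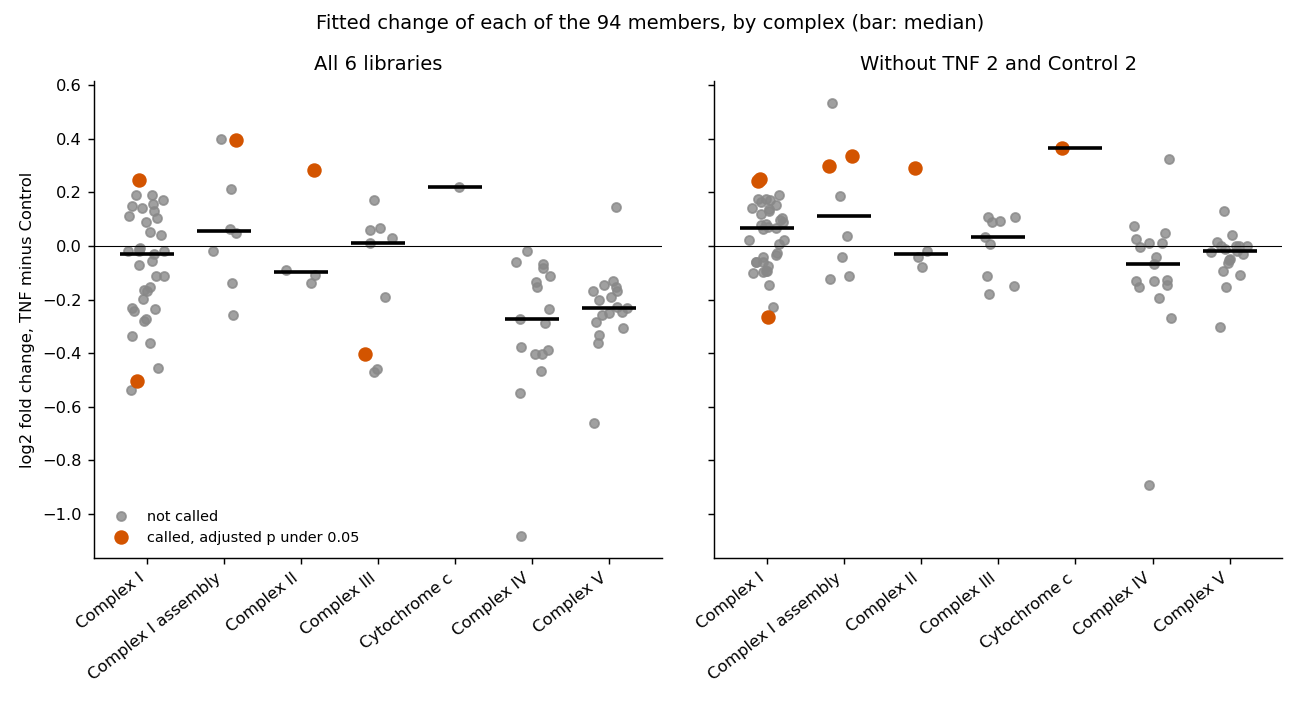
Each point is 1 of the 94 members, with the fitted log2 fold change of TNF minus Control on the vertical axis and the complex on the horizontal axis. The left panel uses all 6 libraries and the right panel leaves out TNF 2 and Control 2. Orange points were called at an adjusted p under 0.05 and black bars are medians. The medians of complex IV (-0.27) and complex V (-0.23) in the left panel lie at -0.07 and -0.02 in the right one.

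Complex I is the entry point for NADH. Of its 37 subunits, 1 was called higher and 1 lower, around a median log2 fold change of -0.03 (0.07 without both libraries numbered 2). Ndufab1, the mitochondrial acyl carrier protein that is also a complex I subunit, had 54.4, 53.7 and 58.0 CPM (the gene's count relative to the library total, scaled by TMM factors) in TNF libraries 1, 2 and 3, against 46.4, 44.9 and 48.6 CPM in Control libraries 1, 2 and 3. All TNF values in CPM lay above all Control values. In TPM the groups overlapped, with 233 to 284 in TNF and 197 to 240 in Control libraries. The log2 fold change was 0.25 ± 0.08 (SE, n = 3 each; edgeR adjusted p = 0.0362). This call held without both libraries numbered 2 (0.25, edgeR adjusted p = 0.0310). It was lost without TNF 1, TNF 3, Control 1 or Control 2 alone, with an edgeR adjusted p of up to 0.113.

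Ndufa1, a small accessory subunit of the membrane arm, had 40.0, 35.5 and 42.9 CPM in TNF libraries, against 48.2, 67.6 and 52.2 CPM in Control libraries. The groups did not overlap, and Control 2 was the highest library. The log2 fold change was -0.50 ± 0.14 (SE, n = 3 each; edgeR adjusted p = 0.0212). Without both libraries numbered 2 it was -0.27 and stayed called (edgeR adjusted p = 0.0327), while without TNF 1 or TNF 2 alone the edgeR adjusted p was 0.0715 and 0.0736. Ndufa1 was the only member called lower without both libraries numbered 2.

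The 7 nuclear-encoded core subunits of complex I, among them the carriers of its flavin and iron-sulfur clusters, had log2 fold changes from -0.06 to 0.19. Of these, 0 were called by edgeR, DESeq2 or limma-voom, and 0 had an unadjusted p under 0.05 by edgeR. For all 7 the 95% interval lay within 1.5-fold, also without both libraries numbered 2. In that repeat 6 of the 7 had a change above 0 (median 0.08), and 0 were called. An unadjusted p under 0.05 by edgeR was then reached by 2 of the 7, and by 43.3% of all genes. Ndufs1, the largest iron-sulfur subunit, had 61.4, 67.4 and 55.7 CPM in TNF libraries, against 61.3, 65.7 and 64.8 CPM in Control libraries. Ndufv1, which binds NADH and the flavin, had 171, 130 and 175 CPM in TNF libraries, against 154, 107 and 155 CPM in Control libraries. In both groups Ndufv1 was lowest in library 2, and the groups overlapped (log2 fold change 0.19 ± 0.17 SE). The 30 accessory subunits, which surround the core, ranged from -0.54 to 0.25 on that scale. Ndufb10, with the most negative value of the complex, had 57.3, 41.7 and 80.7 CPM in TNF libraries, against 80.5, 98.5 and 82.4 CPM in Control libraries. TNF 3 reached the level of Control 1, the change was not called (edgeR adjusted p = 0.0828), and without both libraries numbered 2 it was -0.23. Ndufa7 had the highest Control level per transcript length among the subunits of this complex, with means of 398 TPM in TNF and 491 TPM in Control libraries (log2 fold change of the counts -0.23 ± 0.13 SE). Ndufb4 averaged 66.4 TPM in TNF and 67.7 TPM in Control libraries, while its listed processed pseudogene Ndufb4c averaged 273 and 319 TPM in TNF and Control. Reads could be shared between these copies, so the level of Ndufb4 is uncertain.

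Of the 8 Ndufaf genes, whose products help to assemble complex I and are not part of the finished enzyme, 1 was called higher and 0 lower, around a median log2 fold change of 0.05 (0.11 without both libraries numbered 2). Ndufaf4 had 12.6, 12.6 and 12.2 CPM in TNF libraries, against 10.2, 8.19 and 10.0 CPM in Control libraries. The groups were apart, by a log2 fold change of 0.40 ± 0.11 (SE, n = 3 each; edgeR adjusted p = 0.0208), and by 0.30 without both libraries numbered 2 (edgeR adjusted p = 0.0362). The call was lost without TNF 1 (edgeR adjusted p = 0.0729) or TNF 2 (edgeR adjusted p = 0.0556) alone. Ndufaf3 had 20.9, 16.9 and 21.8 CPM in TNF libraries, against 17.3, 17.4 and 16.8 CPM in Control libraries. Its change of 0.21 ± 0.11 (log2, SE) was not called in all libraries, and at 0.33 it was called without both libraries numbered 2 (edgeR adjusted p = 0.0122). The assembly factors were listed at lower levels than subunits, with Control means of 4.61 to 32.8 TPM, of which Ndufaf2 was the highest. The subunits of complex I had Control means of 47.9 to 491 TPM.

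Complex II, or succinate dehydrogenase, belongs to both the citric acid cycle and the respiratory chain. The median log2 fold change of its 4 genes was -0.10 (-0.03 without both libraries numbered 2), with 1 called higher and 0 lower. Sdhb, the iron-sulfur subunit, had 75.5, 70.1 and 78.7 CPM in TNF libraries, against 61.3, 57.5 and 65.7 CPM in Control libraries. Every TNF value in CPM lay above every Control value. In TPM the groups overlapped, with 109 to 141 in TNF and 95.6 to 121 in Control libraries. The log2 fold change was 0.28 ± 0.09 (SE, n = 3 each; edgeR adjusted p = 0.0354). It was 0.29 without both libraries numbered 2 (edgeR adjusted p = 0.0153), and the edgeR adjusted p was 0.119 without TNF 1, 0.0946 without TNF 3, 0.108 without Control 1 and 0.0689 without Control 2. Sdha, the flavoprotein that oxidises succinate, had 238, 211 and 231 CPM in TNF libraries, against 238, 249 and 247 CPM in Control libraries, and was not called (log2 fold change -0.11 ± 0.09 SE). The membrane anchors Sdhc (-0.09 ± 0.08 SE) and Sdhd (-0.14 ± 0.08 SE) were not called either, although TNF values lay below Control values in both. The difference between Sdhb and the other 3 genes was not tested.

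In complex III, 1 of 9 genes was called lower and 0 higher, while the median log2 fold change was 0.01 (0.03 without both libraries numbered 2). DESeq2 called 3 lower and limma-voom 0, and 3 of the 9 had an unadjusted p under 0.05 by edgeR. Uqcrh, the hinge protein that sits beside cytochrome c1, had 41.8, 34.9 and 44.7 CPM in TNF libraries, against 45.6, 62.2 and 53.0 CPM in Control libraries. The groups did not overlap, TNF 2 was lowest and Control 2 highest. Its log2 fold change was -0.40 ± 0.13 (SE, n = 3 each; edgeR adjusted p = 0.0478), but -0.18 without both libraries numbered 2, where it was not called (edgeR adjusted p = 0.169). The call was also lost without TNF 1, TNF 2, Control 2 or Control 3 alone (edgeR adjusted p of 0.113, 0.135, 0.111 and 0.0907). The accessory subunits Uqcr10 and Uqcr11 showed the same order of libraries. For the accessory subunits Uqcrq (-0.19 ± 0.15, log2 and SE) and Uqcrb (0.01 ± 0.09) the groups overlapped. Uqcr11, the gene of this complex with the highest TPM, had 62.9, 45.9 and 65.2 CPM in TNF libraries, against 67.0, 102 and 72.3 CPM in Control libraries. Its change of -0.47 ± 0.18 (log2, SE) and that of Uqcr10 (-0.46 ± 0.17) were not called by edgeR, and both were nearer 0 without both libraries numbered 2, at -0.11 and -0.15.

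The subunits that carry electrons through complex III were close to level between groups. Cyc1, cytochrome c1, had 79.3, 72.2 and 82.0 CPM in TNF libraries, against 73.5, 71.1 and 78.7 CPM in Control libraries. Uqcrfs1, the Rieske iron-sulfur protein, had 60.6, 60.2 and 64.9 CPM in TNF libraries, against 57.4, 60.9 and 59.9 CPM in Control libraries. The groups overlapped for both, and the 95% interval of the log2 fold change was -0.13 to 0.26 for Cyc1 and -0.11 to 0.23 for Uqcrfs1. For Uqcrc1, a core protein of the matrix side, it was -0.20 to 0.26.

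Cycs encodes cytochrome c, the soluble carrier between complexes III and IV that also triggers apoptosis when it leaves mitochondria. It had 53.3, 44.6 and 60.0 CPM in TNF libraries, against 40.9, 47.1 and 47.6 CPM in Control libraries. TNF 2 lay within the Control range and the change of 0.22 ± 0.12 (log2, SE) was not called (edgeR adjusted p = 0.188). Without both libraries numbered 2 it was 0.37 and was called (edgeR adjusted p = 0.0173).

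**Figure D2:**
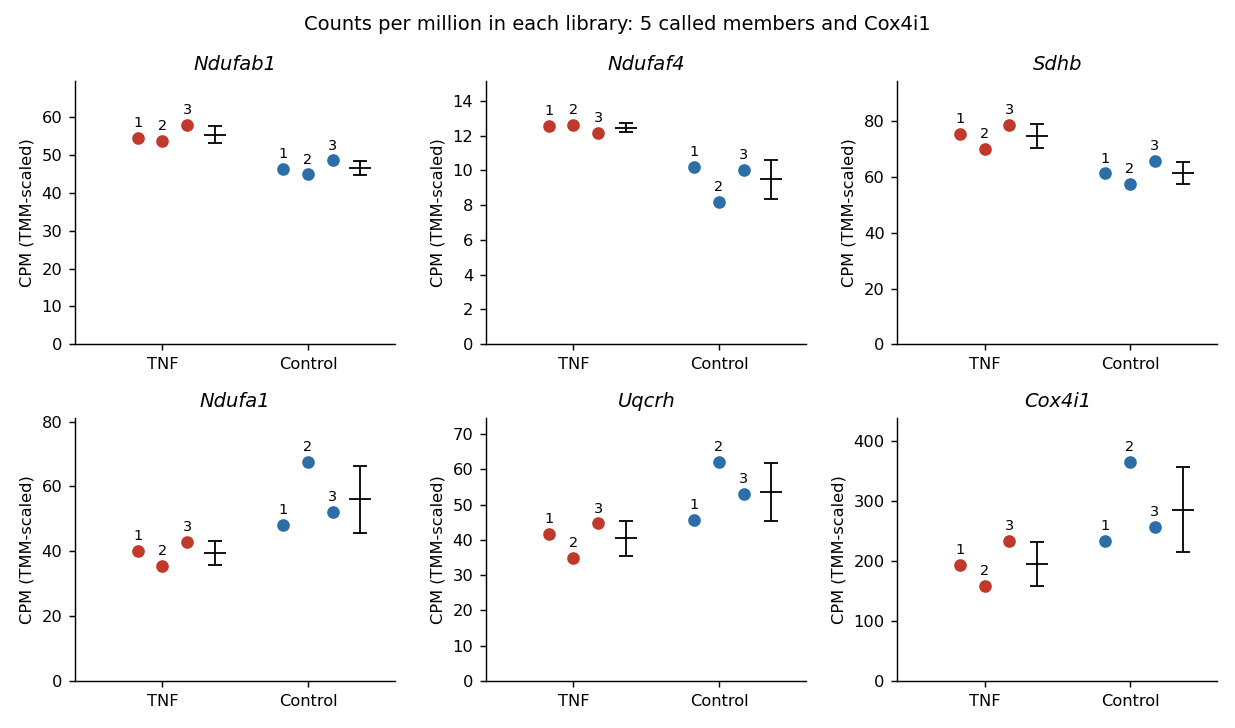
Each panel shows 1 gene, with CPM scaled by TMM factors on the vertical axis and a numbered point for each library, TNF left and Control right. The black bar beside the points is the mean with its SD (n = 3). Ndufab1, Ndufaf4 and Sdhb are higher in all TNF libraries. Ndufa1, Uqcrh and Cox4i1 are lower in them, with Control 2 the highest library of all 6.

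In complex IV, cytochrome c oxidase, all 17 genes had a log2 fold change below 0, with a median of -0.27. edgeR called 0 of them, limma-voom 0, and DESeq2 2, Cox4i1 and Cox8a. With other settings edgeR called some of them lower: Cox4i1, Cox7a2l and Cox8a without Control 1, Cox4i1 and Ndufa4 without TNF 3, Cox4i1 with library totals, and Cox8a with the filter at 5 CPM. By an unadjusted p under 0.05 in edgeR, 7 of the 17 passed, against 43.5% of all tested genes. Without both libraries numbered 2, 11 of the 17 were below 0, the median was -0.07, and 0 were called or had an unadjusted p under 0.05 by edgeR. Cox4i1, the ubiquitous isoform of the regulatory subunit 4, had 194, 159 and 233 CPM in TNF libraries, against 234, 366 and 257 CPM in Control libraries. Control 2 was far above the other libraries, and TNF 3 and Control 1 were nearly level. Its log2 fold change was -0.55 ± 0.19 (SE, n = 3 each; edgeR adjusted p = 0.0595), and -0.19 without both libraries numbered 2. Cox8a had 138, 119 and 150 CPM in TNF libraries, against 153, 209 and 168 CPM in Control libraries (-0.38 ± 0.14, log2 and SE). Cox6a1 had 152, 133 and 155 CPM in TNF libraries, against 160, 199 and 178 CPM in Control libraries (-0.29 ± 0.11). In both, Control 2 was the highest and TNF 2 the lowest library, and without these libraries the changes were -0.15 for Cox8a and -0.13 for Cox6a1. Ndufa4, once assigned to complex I and now counted as a subunit of complex IV, was at -0.40 ± 0.16. Cox7a2l, grouped here as a supercomplex factor, was at -0.39 ± 0.15. Neither was called with all libraries. They were at -0.15 and -0.13 without both libraries numbered 2. Values nearest 0 belonged to Cox5b (-0.02 ± 0.12), Cox7a2 (-0.06 ± 0.09), Cox7c (-0.07 ± 0.10) and Cox7b (-0.08 ± 0.11).

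Complex IV is the part of the chain with most tissue-specific isoforms, and in these cultures the ubiquitous form dominated each pair in both groups. Cox4i2, the lung-enriched and oxygen-responsive form of subunit 4, held 0.0557% of the summed TPM of Cox4i1 and Cox4i2 in TNF and 0.0884% in Control libraries, and it was listed at 0 in TNF 1. Cox6a2, the heart and muscle form, held 0.143% of its pair in TNF and 0.123% in Control libraries. Cox6b2, the testis form, held 1.49% ± 0.0879 in TNF and 1.66% ± 0.0971 in Control libraries (SD, n = 3 each). Cox7a1, the heart and muscle form, held 0.781% ± 0.194 of the summed TPM of Cox7a1, Cox7a2 and Cox7a2l in TNF and 0.752% ± 0.0898 in Control libraries. Ndufa4l2, a hypoxia-induced relative of Ndufa4, held 2.62% ± 0.378 of their sum in TNF and 2.69% ± 0.186 in Control libraries. The ranges of these minor isoforms overlapped between groups, that of Cox6b2 only at its ends, with 1.41% to 1.58% in TNF and 1.56% to 1.76% in Control libraries. For Cox7a2 and Cox7a2l the shares did not overlap between groups. Cox7a2 held 55.9% to 57.2% in TNF and 46.3% to 54.6% in Control libraries, and Cox7a2l 42.0% to 43.1% in TNF and 44.6% to 53.0% in Control libraries, with Control 2 at the far end of both. edgeR with all libraries called none of these minor isoforms, while limma on TPM called Cox6b2 lower.

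In complex V, 17 of 18 genes had a log2 fold change below 0, with a median of -0.23, and edgeR called 0. By an unadjusted p under 0.05 in edgeR 0 passed, and DESeq2 and limma-voom called 0. Without TNF 3, edgeR called 2 lower, Atp5j2 (edgeR adjusted p = 0.0178) and Atp5o (edgeR adjusted p = 0.0358). Without both libraries numbered 2 the median was -0.02. Atp5b, the catalytic beta subunit and the most abundant transcript of all 94, had 1217, 1102 and 1119 CPM in TNF libraries, against 1040, 965 and 1107 CPM in Control libraries. It was the 1 gene of the complex with a positive value (0.14 ± 0.11, log2 and SE), and TNF 2 lay just below Control 3. Atp5a1, the alpha subunit that alternates with beta in the catalytic head, had 487, 440 and 503 CPM in TNF libraries, against 496, 556 and 515 CPM in Control libraries (-0.13 ± 0.10). In TPM, which corrects for length, Atp5b stood 4.31 to 4.66 times as high as Atp5a1 in TNF libraries and 3.17 to 4.07 times in Control libraries, with Control 2 the lowest of the 6. The c-ring that turns with the proton flow is built from 1 mature protein encoded by 3 genes. Atp5g3 supplied 57.9% ± 1.996 of their summed TPM in TNF and 57.7% ± 0.323 in Control libraries, Atp5g1 37.2% ± 1.42 and 36.8% ± 0.419, and Atp5g2 4.99% ± 0.636 and 5.44% ± 0.463 in TNF and Control (SD, n = 3 each). Each range in TNF overlapped that in Control. Atpif1, which inhibits ATP hydrolysis by complex V and is not a member by symbol, had 55.7, 48.5 and 64.4 CPM in TNF libraries, against 66.6, 89.0 and 72.6 CPM in Control libraries. It was called lower (-0.44 ± 0.14, log2 and SE; edgeR adjusted p = 0.0400), and without both libraries numbered 2 it was at -0.20 and not called (edgeR adjusted p = 0.114).

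**Figure D3:**
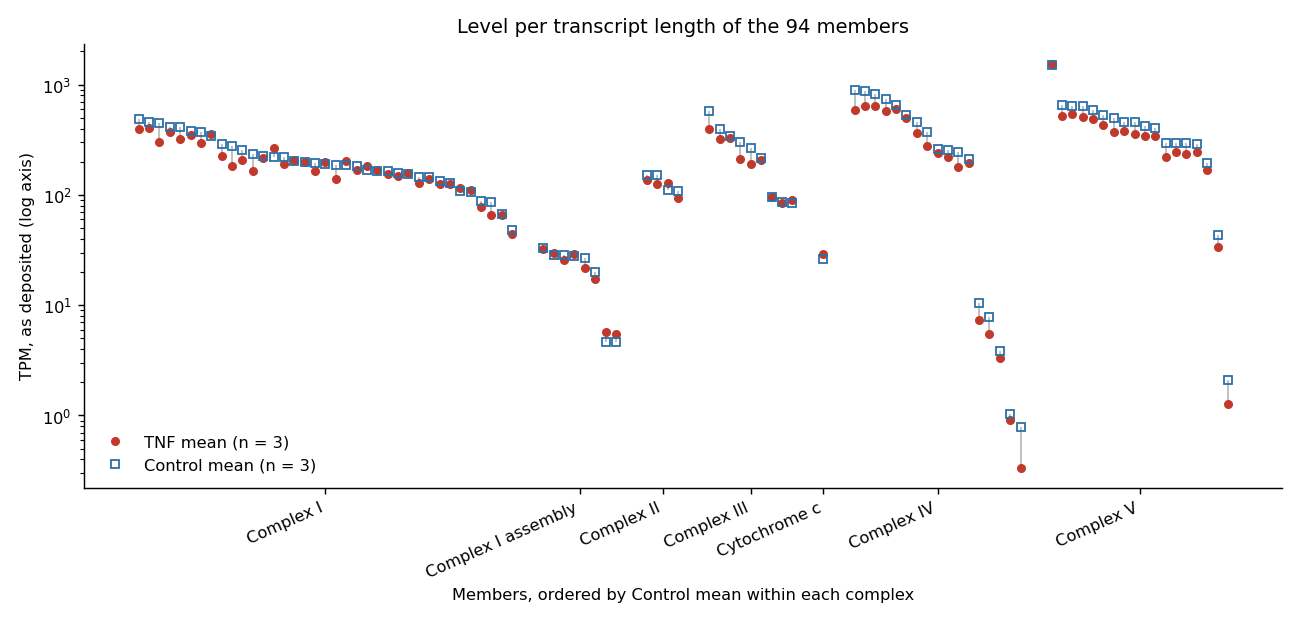
Mean TPM as deposited in TNF (filled circles) and Control (open squares) libraries for each member, on a log axis, ordered within each complex by the Control mean. Atp5b stands highest in both groups (1534 TPM in TNF and 1496 TPM in Control), and the minor isoforms of complex IV and the second Atp5o identifier stand lowest.

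The order of the libraries was shared by many members. After TMM scaling, TNF 2 was the lowest TNF library for 80 of the 94 members, and Control 2 was the highest Control library for 54. Of all 15547 tested genes, this held for 5781 and 6316. Relative to the mean of libraries 1 and 3 of its group, the median member was at -0.26 in TNF 2 and at 0.14 in Control 2 on the log2 scale. In complex IV these medians were -0.23 and 0.33, in complex V -0.29 and 0.16, and in complex I -0.34 and -0.01. Among the nuclear-encoded core subunits of complex I, Control 2 lay below the mean of Control 1 and 3 in 5 of 7 genes. Over all tested genes the medians were 0.01 and -0.002. The 84 cytosolic ribosomal protein genes, which also have short and abundant mRNAs, had offsets of -0.43 in TNF 2 and 0.26 in Control 2. Mitochondrially encoded mRNAs had offsets of -0.10 in TNF 2 and 1.24 in Control 2. Across the 94 members, Spearman's rho between the log2 fold change and the number of counts per TPM, which rises with transcript length, was 0.48, and 0.34 without both libraries numbered 2. Over all tested genes it was 0.0 and -0.03 in these 2 settings. The members share all 6 libraries and are not independent replicates. The 47 members with the fewest counts per TPM had a median change of -0.23 and the other 47 one of -0.02 (-0.04 and 0.05 without both libraries numbered 2). The part of RNA quality or transcript length in these values was not tested.

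**Figure D4:**
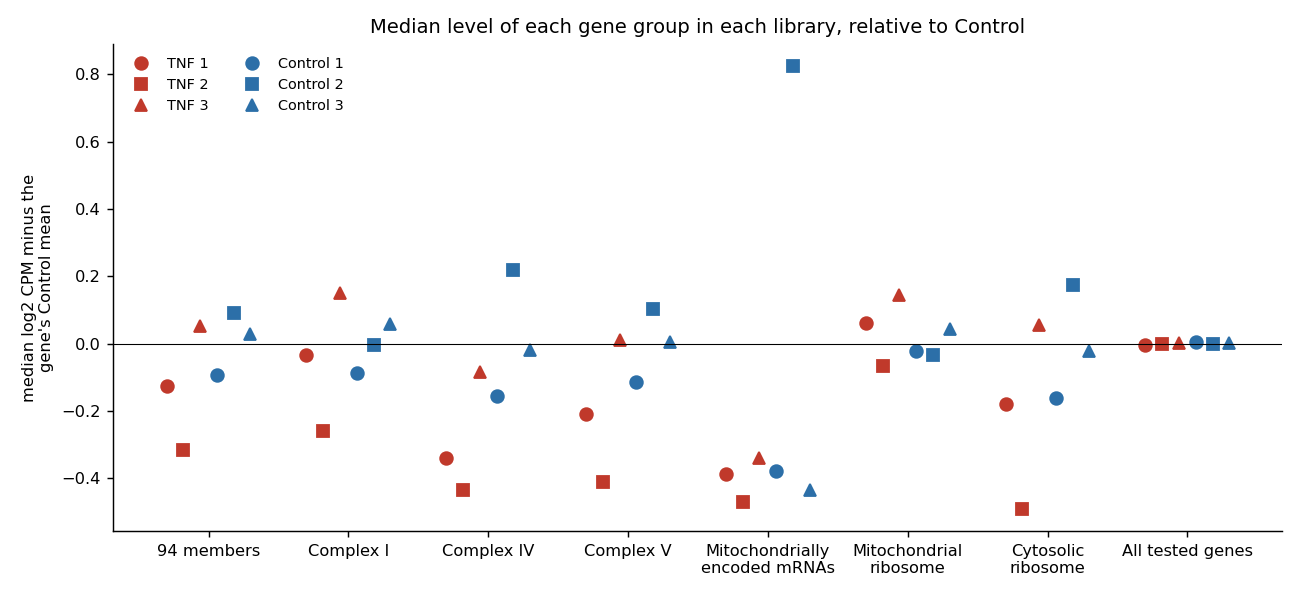
For each gene group on the horizontal axis, the 6 symbols give the median over its genes of log2 CPM minus the gene's Control mean, red for TNF and blue for Control, with squares for the libraries numbered 2. By these medians, TNF 2 is the lowest and Control 2 the highest library for the 94 members as a group and for complexes IV and V. Medians of the cytosolic ribosomal protein genes have the same lowest and highest library.

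The mitochondrially encoded partners of these subunits were not called. Of 13 such mRNAs, 11 were listed. With all libraries edgeR, DESeq2 and limma-voom called 0 of them, with 0 at an unadjusted p under 0.05 by edgeR. Their median log2 fold change was -0.49, with a median SE of 0.34. The interval of the change lay within 2-fold for 0 of the 11, so the lack of calls does not show a lack of change. Without both libraries numbered 2 the changes ranged from -0.22 to 0.89, with a median of 0.03. The interval then lay within 1.5-fold for 7 of the 11 and within 2-fold for 9. In that repeat 0 were called, and 2 had an unadjusted p under 0.05 by edgeR. With all libraries, TNF and Control values did not overlap for 2 of the 11, both lower, where 24.7% of all genes were apart in that direction. mt-Co1, the catalytic subunit of complex IV, had 5795, 5542 and 5526 CPM in TNF libraries, against 6334, 14940 and 5879 CPM in Control libraries. All TNF values lay below all Control values, and Control 2 was far above the other libraries. mt-Nd1 of complex I had 1364, 1268 and 1693 CPM in TNF libraries, against 1551, 3742 and 1399 CPM in Control libraries, and the groups overlapped.

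Over 6 other lists, 34 of 268 genes were called (12.7%), 25 higher and 9 lower, where 32.4% of all genes were. The lists hold genes around the chain and also 84 cytosolic ribosomal protein genes, of which 1 was called (1.19%). Of 47 assembly factors outside the member rule, 8 were higher and 3 lower (23.4% in all), with a median log2 fold change of 0.07. Hccs, which attaches haem to cytochromes c and c1, had 30.8, 34.5 and 31.3 CPM in TNF libraries, against 23.3, 22.8 and 21.1 CPM in Control libraries (0.52 ± 0.09, log2 and SE; edgeR adjusted p = 0.00174). Ttc19, a factor of complex III, was at 0.47 ± 0.08 (edgeR adjusted p = 0.00226). Higd1a, a complex IV protein induced by hypoxia, was at 0.44 ± 0.09 (edgeR adjusted p = 0.00528). The 3 that fell were Cmc2 (-0.50), Cox14 (-0.40) and Cox20 (-0.38), all linked to complex IV assembly, and none of these was called without both libraries numbered 2, where 9 assembly factors were higher and 0 lower.

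Of 21 regulators of mitochondrial genes and mitochondrial DNA, 4 were called higher and 0 lower (19.0%), also by DESeq2 and limma-voom, a share of higher calls near the 16.0% of all genes. The count was 3 without both libraries numbered 2. Ppargc1a, the coactivator PGC-1 alpha that drives mitochondrial biogenesis, had 1.07, 0.843 and 0.889 CPM in TNF libraries, against 0.235, 0.318 and 0.299 CPM in Control libraries. The groups were apart, by 1.71 ± 0.26 (log2, SE; edgeR adjusted p = 0.00124), at a very low level of 0.313 TPM in TNF and 0.240 TPM in Control libraries, and limma on TPM did not call it. Tfb1m, which methylates mitochondrial ribosomal RNA, had 11.2, 12.2 and 9.90 CPM in TNF libraries, against 6.55, 5.29 and 5.96 CPM in Control libraries (0.90 ± 0.12; edgeR adjusted p = 0.000555). Myc (0.47) and Ssbp1 (0.47), a mitochondrial DNA-binding protein, were the other 2, Ssbp1 not without both libraries numbered 2 (edgeR adjusted p = 0.0774). Nrf1, Gabpa and Esrra, transcription factors known to act on respiratory chain promoters, and Tfam, which packages mitochondrial DNA, were not called, with log2 fold changes of -0.18, 0.04, 0.06 and 0.12.

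Of 27 genes of ubiquinone synthesis, other electron donors, carriers and uncoupling proteins, 4 were higher and 2 lower (22.2% in all). Over all genes, 16.0% were called higher and 16.4% lower (32.4% in all). Without both libraries numbered 2, 5 of the 27 were higher and 2 lower, where 33.6% of all genes were called. Sqor, which passes electrons from sulfide to ubiquinone, had 197, 190 and 157 CPM in TNF libraries, against 99.2, 75.3 and 107 CPM in Control libraries (0.95 ± 0.15, log2 and SE; edgeR adjusted p = 0.00127). Gpd2, the mitochondrial glycerol phosphate dehydrogenase that also reduces ubiquinone, was at 0.53 ± 0.09 and the outer membrane channel Vdac3 at 0.44 ± 0.09. Ucp2, an uncoupling protein relative, had 37.9, 36.8 and 39.2 CPM in TNF libraries, against 57.3, 100 and 54.6 CPM in Control libraries, with a log2 fold change of -0.90, and of -0.53 without both libraries numbered 2 (edgeR adjusted p = 0.000543). Coq8a (-0.35) was the other lower gene. Among 78 mitochondrial ribosomal proteins, Mrpl38 (0.67 ± 0.09) and Mrpl39 (0.69 ± 0.13) were called higher and Mrps6 (-0.42 ± 0.09) lower. In total 8 of the 78 were higher and 4 lower (15.4%), where 32.4% of all genes were called. These counts moved with the setting, to 12 higher and 1 lower without both libraries numbered 2, and to 2 higher and 1 lower both without TNF 1 and with the replicate block. Of the 84 cytosolic ribosomal protein genes 1 was higher, Rpl39l (0.79 ± 0.16), and 0 lower (DESeq2 1 lower, limma-voom 0), and 2 had an unadjusted p under 0.05 by edgeR.

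Promoter windows from RefSeq (GRCm38.p6, 250 bases before to 50 after the annotated start) were matched to 76 of the 94 members. Motifs were searched on both strands. GCGCATGCG, the core of the NRF1 site, was in 14.5% of member windows, against 3.92% of those of 10837 listed protein-coding genes. CCGGAAG, the core of ETS factors such as GABP, was in 25.0% of member and 19.1% of listed gene windows. AAGATGG, of YY1, was in 15.8% and 8.18%, TCAAGGTCA, of oestrogen-related receptors, in 2.63% and 0.314%, and GGGNNTTTC, a part of NF-kB sites, in 6.58% and 5.19% of member and listed gene windows. The NRF1 letters were in 14.8% of windows of members with a negative fitted change and 13.6% of those with a positive one, the ETS letters in 29.6% and 13.6%, and the NF-kB letters in 3.7% and 13.6%. These shares come from 54 windows of members with a negative change and 22 of members with a positive one, and no difference between them was tested. Windows of Ndufa1 and Ndufab1 held none of these motifs. The windows of 3 called members and of Cycs follow because each holds a motif classically tied to respiratory chain genes, with matches to any of the 5 motifs in capitals. Uqcrh, called lower, and Sdhb, called higher, both hold the ETS letters, Sdhb also those of NF-kB on the other strand, while Ndufaf4 and Cycs hold those of NRF1.
Sdhb (chr4:140961021-140961320, plus strand): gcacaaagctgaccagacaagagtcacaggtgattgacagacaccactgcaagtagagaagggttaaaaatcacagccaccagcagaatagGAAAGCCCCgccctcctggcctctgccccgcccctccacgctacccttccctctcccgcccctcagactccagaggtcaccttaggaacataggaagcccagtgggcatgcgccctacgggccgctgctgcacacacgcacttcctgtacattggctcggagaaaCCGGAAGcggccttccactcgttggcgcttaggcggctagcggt
Ndufaf4 (chr4:24897833-24898132, plus strand): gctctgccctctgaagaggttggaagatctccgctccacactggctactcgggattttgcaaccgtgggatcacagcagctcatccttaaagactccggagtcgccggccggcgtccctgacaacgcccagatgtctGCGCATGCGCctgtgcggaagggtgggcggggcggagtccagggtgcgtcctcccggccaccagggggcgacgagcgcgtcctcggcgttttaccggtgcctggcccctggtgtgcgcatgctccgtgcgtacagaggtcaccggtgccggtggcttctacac
Uqcrh (chr4:116075021-116075320, minus strand): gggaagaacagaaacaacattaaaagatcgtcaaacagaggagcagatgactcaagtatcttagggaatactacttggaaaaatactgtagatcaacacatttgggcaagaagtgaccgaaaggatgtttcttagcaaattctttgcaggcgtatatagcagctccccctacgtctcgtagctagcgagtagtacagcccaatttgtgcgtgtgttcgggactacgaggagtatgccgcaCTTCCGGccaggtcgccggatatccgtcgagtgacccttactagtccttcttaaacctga
Cycs (chr6:50566520-50566819, minus strand): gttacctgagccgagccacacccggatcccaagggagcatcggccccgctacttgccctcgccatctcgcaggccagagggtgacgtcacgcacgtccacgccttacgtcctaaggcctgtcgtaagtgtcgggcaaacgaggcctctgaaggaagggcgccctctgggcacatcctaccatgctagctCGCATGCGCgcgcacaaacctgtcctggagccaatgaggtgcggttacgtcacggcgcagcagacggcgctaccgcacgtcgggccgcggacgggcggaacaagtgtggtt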

How the data were processed

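RNA of 3 TNF and 3 Control libraries was sequenced with the SMART-Seq Stranded Kit, per the labels' protocols. The submitters' processing notes name Trim Galore, STAR, StringTie, Salmon and build GRCm39, with no versions or settings. The authors deposited expected counts per gene, as whole numbers with no gene column, and TPM with symbols. The title line of the count files calls the values normalized and the column name raw. Totals differed between libraries, so the values were used as counts. Counts and TPM were paired by line: all 260 zeros coincided, and the median SD over libraries of log2 counts per TPM was 0.028, against 0.413 with lines moved by 1. Every listed gene had at least 10 counts in 3 libraries.

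The main model was edgeR's quasi-likelihood fit and two-sided test (version 4.0.16, R 4.3.3), after filterByExpr and TMM scaling and with group alone in the design. P-values were adjusted over all 15547 tested genes and called when under 0.05 after adjustment. SE is the absolute log2 fold change divided by the square root of F, and 95% intervals use it. The common biological coefficient of variation was 0.132. TPM was used to compare levels between genes, with TNF 2 kept in the group means. On simulated data for TNF minus Control, with 50 changed genes per fold among 15417, calls reached 0 genes at 1.2-fold, 46% at 1.5-fold and 86% at 2-fold. Few genes were changed in the simulation, while 32.4% of all tested genes were called in the real data. Adjustment is stricter when few genes change, so these shares do not give the sensitivity of the real test.

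The members and lists were chosen with earlier results of these data known. Genes named were the called members with the smallest adjusted p in each complex, the member of highest TPM, paralogous pairs, catalytic subunits, the complex V inhibitor Atpif1 and up to 3 called genes per other list. Ndufb4, Ndufb4c, Ndufb10, Ndufaf3, Uqcr10, Cox5b, Cox7c, Nrf1, Gabpa, Esrra, Tfam, Ssbp1, Cmc2, Cox14, Cox20, Ucp2, Coq8a, Atp5j2, Atp5o, Camp, S100a8, Cd14, Csf1r, mt-Co1 and mt-Nd1 were named after their values were seen. So were Uqcrq and Uqcrb. Alternatives were other scalings, DESeq2 1.42.0, limma 3.58.1 (voom, or log2 TPM with a pseudocount of 1 or 0.1), other filters, a block for replicate number, and fits on fewer libraries. The cytosolic ribosome list was narrowed after the files were seen, to drop kinases its pattern had caught.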

Additional observations from a re-analysis of the deposited data

How the results depend on the processing

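None of the 5 member calls held in every repeat, and no called value of a named gene changed sign in any. Members called higher were 3 with all libraries, 0 with library totals, 0 in each of the 3 limma fits of log2 TPM, 0 at an adjusted p under 0.01, 6 without both libraries numbered 2, and 0 to 3 when 1 library was left out. Members called lower were 2, with 1 by RLE factors, 4 by library totals, 8 by DESeq2, 1 by limma-voom, 0 at an adjusted p under 0.01, 1 without both libraries numbered 2, and 0 to 13 when 1 library was left out. The 0 and the 13 came without TNF 1 or TNF 2 and without TNF 3. The members' median log2 fold change ranged from -0.26 (without TNF 3) to -0.0003 (without both libraries numbered 2), against -0.14 with all libraries. The ratio of summed member TPM, TNF over Control, was 0.849, and 0.775 to 0.945 when 1 library was left out. Without both libraries numbered 2 the ratio was 0.942. The members summed to 16952 TPM in TNF 2, the library with 19.4% of counts on 18S ribosomal RNA. In the other libraries they summed to 23171 to 26674 TPM. The part of 18S ribosomal RNA in this ratio was not tested.

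Over all genes, higher calls were 1612 with library totals, 1477, 1470 and 1317 by limma on TPM and 1587 at an adjusted p under 0.01, against 2489, and lower calls 1534 at the stricter threshold, against 2550. Over the 6 other lists, cytosolic ribosomal proteins included, 25 genes were higher and 9 lower. Higher calls were 10 with library totals, 9 in each limma fit of TPM and 13 at the stricter threshold. They were 13 to 28 when 1 library was left out. Lower calls there were 5 in each limma fit of TPM, 1 at the stricter threshold, 3 without both libraries numbered 2 and 2 to 14 when 1 library was left out.

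With the replicate block, members called were 2 higher and 0 lower, and genes of the other lists 16 higher and 4 lower. Over all genes, 1987 were called higher and 1993 lower. Libraries of the same number did not all deviate together (correlations of -0.01, -0.30 and -0.22 over all genes for numbers 1, 2 and 3, and 0.57, -0.02 and 0.24 over the members), so they were not treated as pairs. The block left Ndufaf4 and Sdhb called and Ndufab1, Ndufa1 and Uqcrh not. All 5 called members changed by less than 1.5-fold. How many changes of that size were missed with 3 libraries a group was not tested.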
